A study of Mus musculus with 5 samples.

Results

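The 9 genes described here code for transcription factors that build and maintain the hepatocyte programme, together with Klf15. The 9 are the forkhead factors Foxa1, Foxa2 and Foxa3, the C/EBP factors Cebpa and Cebpb, the cut-homeobox factors Onecut1 and Onecut2, the homeobox factor Prox1, and the Krüppel-like factor Klf15. Members were chosen by gene symbol in the table of gene read counts, where all 9 of 9 listed symbols had a row among 11048 named rows. All 9 were among the 10542 genes that passed the filter on low values and were tested. All 5 libraries were made from livers of db/db mice, which lack a working leptin receptor and become obese and diabetic, so both groups shared that genotype. After a period of acclimatization the mice were given vehicle (3 libraries) or SR4 (2 libraries) by oral gavage over 5 weeks, SR4 at 10 mg/kg. The series presents SR4 as a transporter of protons that fatty acids switch on. The labels give no age or sex. They also leave unsaid whether every library had a separate mouse as its source, and the p-values cover no more than the spread among these libraries, which may be technical.

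FOXA proteins open chromatin at liver genes, and act beside HNF6, the product of Onecut1. C/EBP alpha sustains metabolic genes of the adult hepatocyte, while C/EBP beta responds to hormones, fasting and inflammation. Klf15 is induced by fasting and by glucocorticoids, and in mouse liver it drives amino acid breakdown and glucose output. Prox1 is required for liver development and acts as a corepressor of bile acid and lipid genes in the adult liver.

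None of the 9 genes passed the test for a difference between SR4 and vehicle livers. Klf15 came nearest. It was 2.27-fold higher in SR4 livers, with both SR4 libraries above all 3 vehicle libraries. Foxa1 was 1.39-fold lower, with both SR4 libraries below all vehicle libraries, and the other 7 genes overlapped between the groups. Onecut1 varied more between libraries of the same treatment than it differed between treatments.

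The test was limma on log2 values over all 10542 genes, with Benjamini-Hochberg adjustment and a threshold of 0.05. It called 139 genes, or 1.32% of those tested (0.436% higher and 0.882% lower in SR4 livers), and 0 of the 9 members in either direction. limma-voom, run as an alternative, also called 0. At an unadjusted p under 0.05 there were 2 of 9 members, Klf15 and Foxa1, against 21.4% of all genes. The 2 groups did not overlap for these 2 members, with SR4 above for Klf15 and below for Foxa1. They did not overlap for 41.6% of all genes, with SR4 above for 21.1% and below for 20.5%. Neither member count stood out from its background.

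Normalised counts below are deposited values, which the authors had brought to 1 common total of about 25494249 per library, divided by a TMM scaling factor between 0.946 and 1.08. The depth before that step is not used here. Of 9 hepatocyte markers 8 had a row, and their summed normalised counts ran from 2215599 to 2870731 in vehicle and from 2406877 to 3004163 in SR4 libraries. Most of that sum was Alb, with 1609322 to 2197040 in vehicle and 1754162 to 2200257 in SR4 libraries. Both SR4 libraries lay above the vehicle range for 4 of the 8 and below it for 1, against 21.1% and 20.5% of all genes. Their median log2 difference was 0.31. The macrophage sum over 6 of 7 markers was 3691 to 5017 in vehicle and 1954 to 3801 in SR4, and the stellate sum over 6 of 6 markers was 6470 to 10988 and 5320 to 6930. Their median log2 differences were -0.65 and -0.78, with 6 of 6 markers fitted below 0 in each list and 0 called. Both SR4 libraries lay below the vehicle range for 2 macrophage and 3 stellate markers, against 20.5% of all genes. The 6 endothelial markers had a median of -0.05, and all overlapped. Of 8 cholangiocyte markers 2 had rows, and of 5 exocrine pancreas markers 0 did. In bulk liver, fewer cells of a type and less RNA per cell cannot be told apart.

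Promoter sequences are shown for Klf15, the member with the largest difference, and for Onecut1, the member that varied most. RefSeq windows (GRCm38.p6, 250 bases before to 50 after an annotated start) were found for 8 of the 9 members. Capitals mark the motifs found. Both windows held the E-box, which reads CACGTG. Both also held the GC box, spelled GGGCGG on either strand. The Klf15 window further held the sequence CCAAT, a site of the factor NF-Y. The Onecut1 window held the site CCACCC, of the kind that Krüppel-like factors bind. The Klf15 window is chr6:90462326-90462625 on the plus strand and that of Onecut1 is chr9:74861671-74861970 on the plus strand.
Klf15: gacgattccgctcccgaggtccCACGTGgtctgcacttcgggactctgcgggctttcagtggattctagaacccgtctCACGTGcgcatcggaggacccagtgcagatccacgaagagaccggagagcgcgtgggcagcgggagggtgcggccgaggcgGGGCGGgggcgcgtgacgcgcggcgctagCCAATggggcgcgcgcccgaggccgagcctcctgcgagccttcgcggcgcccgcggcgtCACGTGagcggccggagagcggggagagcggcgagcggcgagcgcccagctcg
Onecut1: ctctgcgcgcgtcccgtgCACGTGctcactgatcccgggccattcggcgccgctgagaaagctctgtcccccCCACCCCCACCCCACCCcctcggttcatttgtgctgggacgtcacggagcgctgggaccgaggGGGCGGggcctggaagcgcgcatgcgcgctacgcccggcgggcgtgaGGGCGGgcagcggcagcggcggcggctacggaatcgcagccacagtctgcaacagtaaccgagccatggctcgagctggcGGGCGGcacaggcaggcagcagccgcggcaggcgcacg
The Klf15 window held 3 CACGTG matches, beginning at positions -228, -172 and -3 when the start base is 0. Among 32851 windows of this length in the table, 7.15% held CACGTG at least once and 0.0883% held it 3 times or more. CACGTG is the site bound by the clock factors CLOCK and BMAL1, among others. The Onecut1 window held 3 matches to the Krüppel-like site on a single run of letters, the last pair overlapping, and 2.25% of all windows held 3 or more. Both strands were searched in the 11 windows of members. The C/EBP motif TTGCNNAA, the D-box TTANGTAA, the STAT5 motif TTCNNNGAA and the glucocorticoid receptor half-site AGAACA were found in 0 of them, against 10.8%, 2.32%, 8.3% and 19.0% of all windows. The forkhead motif TGTTTAC was found in 1 member window, of Foxa1, and the HNF6 motif ATTGAT in 1, of Foxa2, against 3.65% and 7.54% of all windows. The E-box was found in 2 of the 11 windows, and the GC box in 10, against 35.7% of all windows. The Krüppel-like site was found in 6 and the NF-Y site in 5, against 31.5% and 37.4%. The letters TATAAA, as in a TATA box, were found in 5, against 13.6%. They began at -34 in Prox1, -36 in Foxa3, -30 in Cebpa, -208 in Foxa2 and 21 in Cebpb. The 11 windows belong to 8 genes, so some genes count more than once. G and C made up 73.3% of the Klf15 window and 73.0% of the Onecut1 window, and the shares were not matched for base composition. These are matches of letters in a short window, not measured binding.

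Levels can be compared between genes only per length, here as normalised counts per kb of annotated exon. Cebpa was the highest, with 4600 ± 639 per kb in vehicle livers (SD, n = 3), followed by Cebpb with 2044 ± 569 and Klf15 with 1309 ± 391. Foxa2 had 256 ± 85.2 and Foxa3 228 ± 41.6 per kb, Prox1 121 ± 7.29, Foxa1 76.7 ± 9.02, Onecut2 70.9 ± 9.15 and Onecut1 33.3 ± 31.5. Vehicle ranges overlapped for 4 neighbouring pairs in this order: Cebpb with Klf15, Foxa2 with Foxa3, Foxa1 with Onecut2, and Onecut2 with Onecut1. In SR4 livers Klf15 had 2895 ± 291 per kb (n = 2) and Cebpb 1696 ± 661, so their order by mean was reversed there. The exon lengths come from GENCODE M21 and assume that every annotated exon is used, so a level of a gene with a long annotated transcript, such as Onecut2 with 16234 bases of exon, may be understated.

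**Figure D1:**
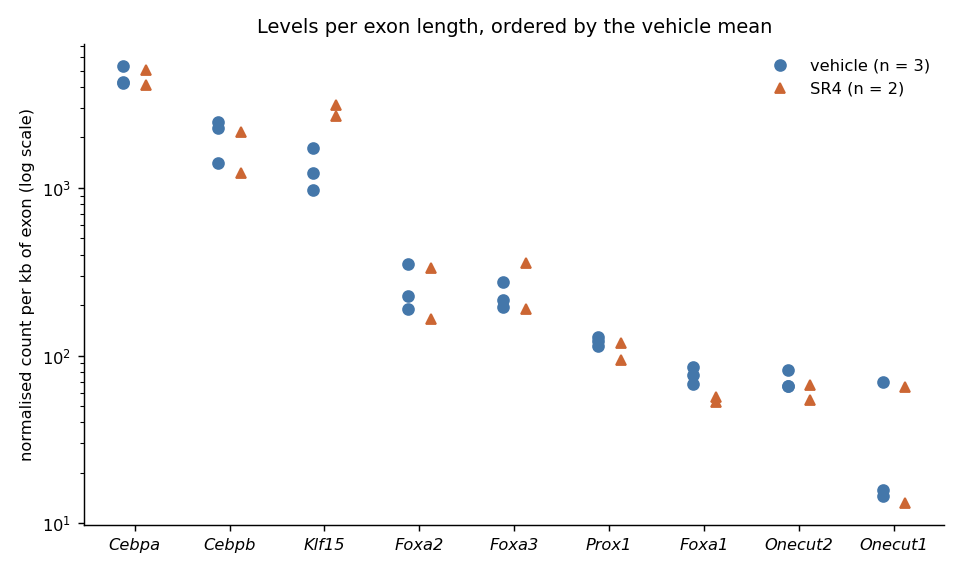
Normalised counts per kb of annotated exon for each of the 9 factor genes on a log axis, ordered by the vehicle mean. Circles are the 3 vehicle libraries and triangles the 2 SR4 libraries, and the triangles of Klf15 lie above its circles.

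Klf15 (chromosome 6, 90462576 to 90475238, plus strand, GRCm38, protein-coding) had 2702, 4844 and 3417 normalised counts in vehicle libraries 1, 2 and 3, and 8654 and 7506 in SR4 libraries 1 and 2. Both SR4 values were higher than the highest vehicle value, and the vehicle libraries themselves spread 1.79-fold. The means were 3654 ± 1091 (SD, n = 3) and 8080 ± 811 (n = 2). On the log2 scale the difference was 1.18 with a standard error of 0.24 and a 95% interval of 0.60 to 1.77, a fold of 1.52 to 3.40. It did not pass (limma adjusted p = 0.0707). Over 15 alternative analyses the difference was positive in 15, ran from 0.99 to 1.41 and passed in 0, with adjusted p-values from 0.0638 to 0.226.

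**Figure D2:**
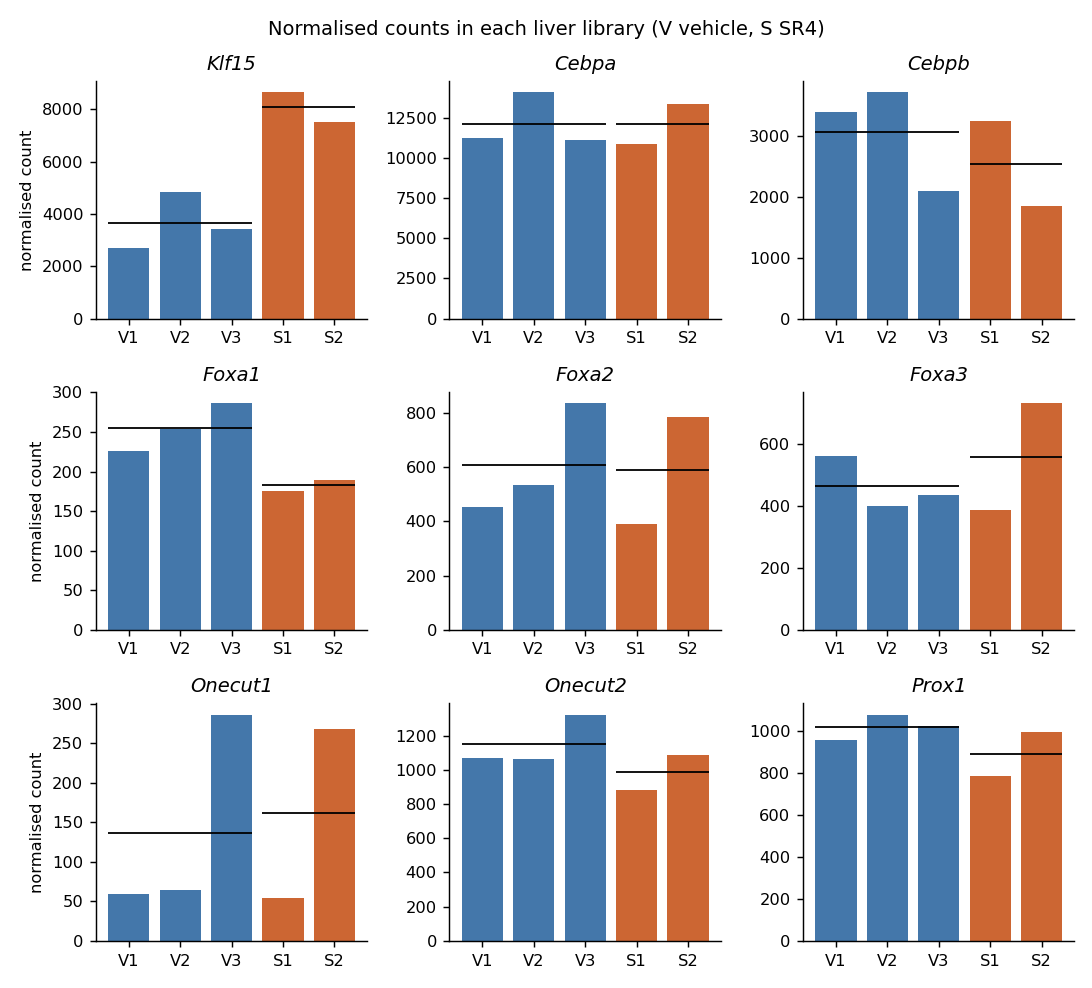
Normalised counts of each factor gene in the 5 libraries, as bars (V1 to V3, vehicle; S1 and S2, SR4), with black lines at the group means. Klf15 is higher in both SR4 libraries, with 8654 and 7506, than in any vehicle library, while Onecut1 is high in V3 and S2.

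The genes whose pattern over the 5 libraries was most like that of Klf15 were found among 8966 named genes with a mean of 100 or more. Likeness was the root-mean-square difference between centred log2 values. The closest was Pck1, the gluconeogenic enzyme PEPCK, at 0.0795 log2 units. It had 40977, 73413 and 56773 normalised counts in the vehicle libraries and 147660 and 128506 in the SR4 libraries, and did not pass (limma adjusted p = 0.0687). Odf3b, Pigr, the polymeric immunoglobulin receptor, Cyp3a13, a cytochrome P450, and Amdhd1, an enzyme of histidine breakdown, followed at 0.119, 0.131, 0.140 and 0.148. Of these 5 genes only Cyp3a13 passed, with a log2 difference of 1.24 (limma adjusted p = 0.033). It did not pass without vehicle 2, vehicle 3, SR4 1 or SR4 2 (adjusted p = 0.0807, 0.0728, 0.0502 and 0.13). All 5 shared the order of Klf15 within vehicle, with vehicle 1 lowest and vehicle 2 highest. They were chosen for likeness to Klf15 over these same libraries, so the shared order follows from the choice and is no separate result.

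**Figure D3:**
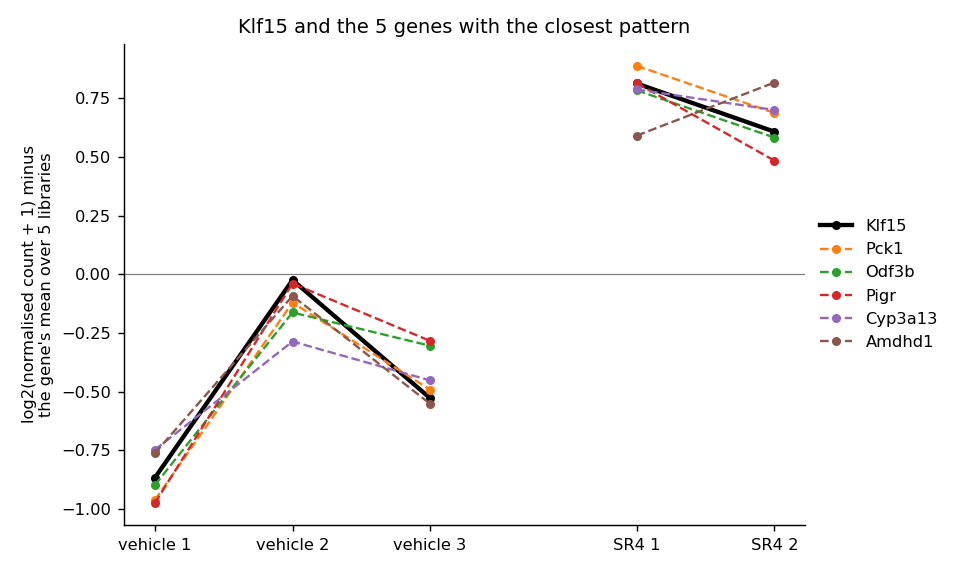
Log2(normalised count + 1) of Klf15 (black) and the 5 genes with the closest pattern, each minus its own mean over the 5 libraries. Lines only join the values of 1 gene within a group, and libraries have no order. All 6 genes lie below their mean in the 3 vehicle libraries and above it in both SR4 libraries, which follows from choosing them by likeness to Klf15.

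Of 20 genes of amino acid breakdown and glucose output that are linked to Klf15, 3 rose in SR4 livers, 0 fell and 17 did not pass. Of all genes, 0.436% rose and 0.882% fell. The 3 listed genes that rose were Tat, the tyrosine aminotransferase, Got1, the cytosolic aspartate aminotransferase, and Sds, the serine dehydratase. In 16 of the 20 both SR4 libraries lay above the vehicle range, and in 2 below it, against 21.1% and 20.5% of all genes. The 2 below were Glul and G6pc, the latter a gene of glucose output. G6pc had 16983, 13294 and 12642 normalised counts in vehicle and 12497 and 7789 in SR4 libraries (limma adjusted p = 0.266). It was named after its values were seen. Pck1, also of glucose output, lay above the vehicle range. The median log2 difference of the list was 1.16 against -0.01 over all genes. The list was chosen with earlier results of these data known, so these comparisons describe it and do not test it. Tat had 19363, 35325 and 27858 normalised counts in vehicle and 112614 and 116951 in SR4 libraries, lowest in vehicle 1 and highest in vehicle 2 within the vehicle group, as for Klf15. Its limma adjusted p was 0.033, as was that of Got1, and that of Sds was 0.045. The number of these 20 genes that passed was 0 without vehicle 2, vehicle 3 or SR4 2 and 6 without vehicle 1. Sds also did not pass without SR4 1 (adjusted p = 0.0566) or in limma-voom (0.0621). The list's median ran from 0.90 to 1.35 with 1 library left out.

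Several genes with a direct part in amino acid nitrogen handling did not pass despite separated groups. Gpt, the alanine aminotransferase, had 6647, 10925 and 10807 normalised counts in vehicle and 19874 and 20858 in SR4 livers (limma adjusted p = 0.0722). Arg1, the urea cycle arginase, had 37210, 45424 and 41315 against 75488 and 74413 (adjusted p = 0.0674). Glul, glutamine synthetase of the pericentral hepatocyte, lay on the other side, with 16965, 24791 and 26641 against 10701 and 11143 (adjusted p = 0.0722). These 3 genes were named after their values were seen.

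Of 20 glucocorticoid-responsive genes 4 rose and 0 fell, against 0.436% and 0.882% of all genes. This list, too, was chosen with earlier results of these data known, so its counts describe it and do not test it. The median of the list was 0.41 against -0.01 over all genes. The 4 that rose were Tat, Sds and the zinc-binding metallothioneins Mt1 and Mt2. Tat and Sds are also in the list linked to Klf15, so they are counted in both lists. Mt2 had 2023, 1777 and 1547 normalised counts in vehicle and 10088 and 9595 in SR4 libraries, and passed in each of 15 alternatives. Mt1 had 4186, 3641 and 5162 against 18033 and 34279, and it did not pass when any 1 of vehicle 1, vehicle 2, vehicle 3 or SR4 2 was left out (adjusted p = 0.0649, 0.0948, 0.0598 and 0.0654). Metallothioneins also respond to metals, and reads can be shared between genes as alike as these. The other 16 genes did not pass. Among them Fkbp5, Tsc22d3 and Per1, widely used readouts of the receptor, had log2 differences of 0.54, 0.58 and -0.03, and Nr3c1, the receptor itself, had 0.09. Both SR4 libraries lay above the vehicle range for Fkbp5 (limma adjusted p = 0.212), and those of Tsc22d3, Per1 and Nr3c1 overlapped it. Pdk4, a kinase that restrains pyruvate dehydrogenase, lay on the other side, with 920, 428 and 398 normalised counts in vehicle and 119 and 198 in SR4 libraries, a log2 difference of -1.81 (adjusted p = 0.0953). These 5 genes were named after their values were seen. The part of glucocorticoids in the Klf15 value was not tested.

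Of 16 other Krüppel-like factor genes listed, 10 had a row and were tested. Of these 0 passed (0 in limma-voom as well), against 1.32% of all genes in limma. An unadjusted p under 0.05 was found for 2 of the 10, against 21.4% of all genes. The median log2 difference was 0.37, and 7 of the 10 were fitted above 0. Klf10, a factor induced by TGF-beta and glucose, had 886, 599 and 940 normalised counts in vehicle and 451 and 223 in SR4 livers (limma adjusted p = 0.11). It passed without SR4 1 (adjusted p = 0.0445). Klf1, the factor of red blood cell development, had 53.7, 121 and 155 against 304 and 318 (adjusted p = 0.115). The groups did not overlap for either gene. Of 5 red cell markers 1 fell, against 0.882% of all genes. It was Hbb-bs, from 2433, 2822 and 2267 to 1202 and 1028, with a limma adjusted p of 0.033. Hbb-bs did not pass without vehicle 2, vehicle 3 or SR4 2 (adjusted p = 0.0865, 0.0598 and 0.13). The other globin genes, Hba-a1, Hba-a2 and Hbb-bt, had log2 differences of -0.77, -0.73 and -0.77 and did not pass (adjusted p = 0.136, 0.152 and 0.0747), with both SR4 libraries below the vehicle range. Alas2, the haem synthesis enzyme of red cell precursors, had 1772, 1959 and 2475 against 2013 and 2871, a log2 difference of 0.23 (adjusted p = 0.548). The part of red cells in the Klf1 value was not tested.

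Among the forkhead factors, Foxa1 (chromosome 12, 57540628 to 57546916, minus strand) had 226, 253 and 286 normalised counts in vehicle and 175 and 190 in SR4 libraries. All vehicle values were above both SR4 values. The log2 difference was -0.48 with a standard error of 0.17 and a 95% interval of -0.87 to -0.08, which did not pass (limma adjusted p = 0.169). It was negative in 15 of 15 alternatives and ran from -0.59 to -0.39.

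Foxa2 (chromosome 2, 148042877 to 148046969, minus strand), which supports fatty acid oxidation and bile acid transport in fasted mouse liver, had 451, 535 and 835 in vehicle and 392 and 787 in SR4 libraries. Vehicle 3 and SR4 2 were high, and the groups overlapped. Its log2 difference was -0.08 with a 95% interval of -0.98 to 0.83 (adjusted p = 0.926), a fold of 0.506 to 1.77. Foxa3 (chromosome 7, 19013284 to 19023538, minus strand), which is expressed in adult liver and gut, had 559, 398 and 434 against 387 and 729. SR4 2 was the highest and SR4 1 the lowest of all 5 libraries. The log2 difference was 0.21, with an interval of -0.48 to 0.91 (adjusted p = 0.714), and it was -0.25 without SR4 2. Foxa1 and Foxa2 were thus highest in vehicle 3, and Foxa3 in SR4 2.

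Of 12 other forkhead genes tested, 0 passed in limma or limma-voom, against 1.32% of all genes in limma. Their median was -0.06, and 1 had an unadjusted p under 0.05, against 21.4% of all genes. Foxp4 had 686, 604 and 598 normalised counts in vehicle and 517 and 483 in SR4 libraries (limma adjusted p = 0.183). Foxp1 had 167, 195 and 190 against 250 and 211 (adjusted p = 0.321).

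Cebpa (chromosome 7, 35119293 to 35121928, plus strand) had 11206, 14072 and 11102 normalised counts in vehicle libraries and 10876 and 13352 in SR4 libraries. The groups overlapped and their means, 12127 ± 1686 and 12114 ± 1751, were nearly equal. The 95% interval of the log2 difference was -0.42 to 0.42, a fold of 0.749 to 1.34 (limma adjusted p = 0.999).

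Cebpb (chromosome 2, 167688915 to 167690418, plus strand) had 3397, 3720 and 2103 in vehicle and 3253 and 1848 in SR4 libraries. Vehicle 3 and SR4 2 were low, the opposite of Foxa2 in the same libraries. The log2 difference was -0.28 with an interval of -1.08 to 0.52 (adjusted p = 0.66), and it was 0.12 without SR4 2. Exons of Tmem189 on the other strand cover 20.7% of the annotated exon bases of Cebpb, and the library kit named in the labels does not keep the strand, so reads there cannot be assigned to either gene. Tmem189 fell, from 1267, 1346 and 1188 to 791 and 806 (limma adjusted p = 0.0457). It did not pass in limma-voom (adjusted p = 0.0621) or with any 1 library left out (adjusted p from 0.0758 to 0.166).

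Of 10 genes of C/EBP relatives and partner leucine zipper factors, 0 passed in limma or limma-voom, against 1.32% of all genes in limma. Their median was -0.07, and 4 had an unadjusted p under 0.05, against 21.4% of all genes. Nfil3, a repressor at D-box sites, had 272, 304 and 295 normalised counts in vehicle and 445 and 545 in SR4 libraries (limma adjusted p = 0.061). Dbp, the activator at the same sites and an output of the clock, had 3058, 3881 and 4430 against 4716 and 5686 (adjusted p = 0.209), and was named after its values were seen. Cebpg, a partner of C/EBP and ATF4, had 1294, 1096 and 1032 against 845 and 748 (adjusted p = 0.106). The time of day of sampling is not in the labels. Among 20 liver genes linked to C/EBP only Tat rose and 0 fell, against 0.436% and 0.882% of all genes. Tat is also in the Klf15 and glucocorticoid lists. An unadjusted p under 0.05 was found for 8 of the 20, 7 higher and 1 lower, against 21.4% of all genes. The median was 0.08, which was -0.04 under scaling to equal totals.

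Onecut1 (chromosome 9, 74861921 to 74891781, plus strand) had 59.6, 65.0 and 286 normalised counts in vehicle libraries and 54.3 and 268 in SR4 libraries. Vehicle 3 and SR4 2 were high and the other 3 libraries low, a 4.81-fold range within vehicle and a 4.94-fold range within SR4. The log2 difference between treatments was 0.22, with a standard error of 0.92 and an interval of -2.05 to 2.49 (limma adjusted p = 0.916). Its spread within groups on the log2 scale (SD 1.39) was larger than that of 99.5% of genes tested. A long non-coding RNA on the same strand, Gm20649, shares 52.8% of the Onecut1 exon bases, so part of these reads may belong to it.

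HNF6 is known as a target of growth hormone signalling through STAT5 in rat liver, and STAT5 targets were looked up after the Onecut1 values were seen. Cish, a feedback inhibitor induced by STAT5, had 144, 52.7 and 502 normalised counts in vehicle and 55.2 and 527 in SR4 libraries. Vehicle 3 and SR4 2 were again the highest. Bcl6, which growth hormone represses, had 314, 883 and 205 against 654 and 126, lowest in the same 2 libraries. Phlda1, the gene closest to Onecut1 in pattern at 0.162 log2 units, had 280, 319 and 1462 against 316 and 1696. Cyp7a1, the rate-limiting enzyme of bile acid synthesis and a gene that HNF6 can activate, had 645, 724 and 2769 against 426 and 6335. Socs2, another STAT5 target, had 50.7, 31.0 and 119 against 101 and 195, with the same 2 libraries highest but SR4 1 close to vehicle 3. Igf1 was above the vehicle range in both SR4 libraries, with 3495, 4379 and 5852 against 7927 and 10333. None of these 6 genes passed, with limma adjusted p-values of 0.968, 0.835, 0.812, 0.835, 0.275 and 0.0897 in the order named. The part of growth hormone in the spread of Onecut1 was not tested.

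**Figure D4:**
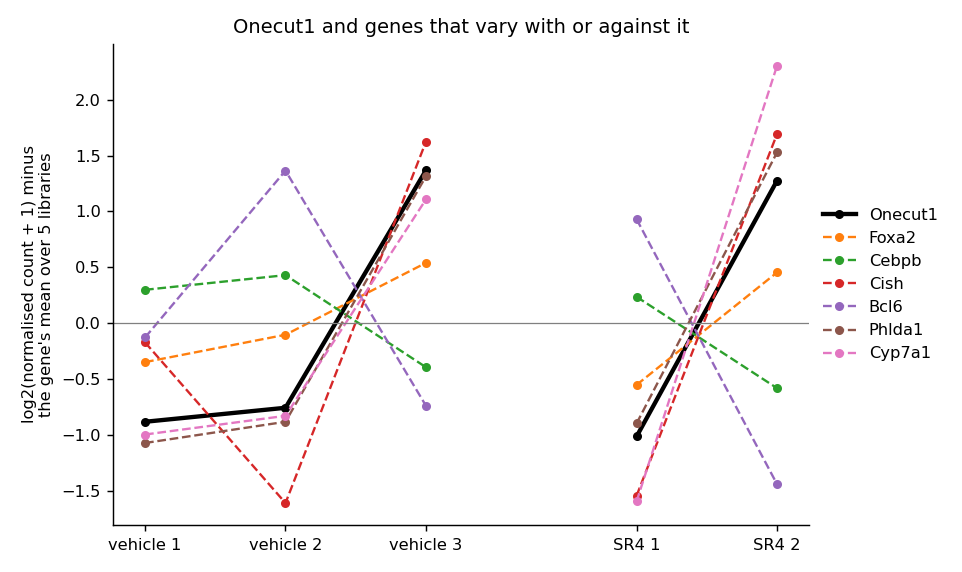
Log2(normalised count + 1) minus each gene's own mean over the 5 libraries, for Onecut1 (black) and 6 genes chosen after their values were seen. Lines only join the values of 1 gene within a group, and libraries have no order. Onecut1, Foxa2, Cish, Phlda1 and Cyp7a1 are high in vehicle 3 and SR4 2, where Cebpb and Bcl6 are low. Socs2 and Igf1, looked up with Cish and Bcl6, are not drawn and followed this pattern less closely. On the same scale Socs2 lay at 0.30 in SR4 1, and Igf1 at -0.02 in vehicle 3 and 0.42 in SR4 1.

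Onecut2 (chromosome 18, 64340020 to 64400987, plus strand), the paralog of Onecut1, had 1070, 1062 and 1323 normalised counts in vehicle and 884 and 1086 in SR4 libraries. Vehicle 3 and SR4 2 were again the highest, but within a much narrower range than for Onecut1. The log2 difference was -0.22 with an interval of -0.58 to 0.13 (limma adjusted p = 0.429). Of 6 other cut and homeobox genes tested, 1 rose and 0 fell, against 0.436% and 0.882% of all genes. The gene that rose was Cux2, a female-biased liver factor of the same cut family. It had 7.89, 27.5 and 24.0 against 687 and 743 (limma adjusted p = 0.0264). The labels give no sex, and the part of sex in the Cux2 value was not tested. Cux2 did not pass without vehicle 2, vehicle 3 or SR4 2 (adjusted p = 0.0653, 0.0598 and 0.116).

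Prox1 (chromosome 1, 190118035 to 190170714, minus strand) had 954, 1076 and 1020 normalised counts in vehicle libraries and 786 and 994 in SR4 libraries. SR4 1 was the lowest, and SR4 2 lay within the vehicle range. The log2 difference was -0.20 with an interval of -0.52 to 0.12 (limma adjusted p = 0.435). Prox1 is also made by lymphatic endothelium, whose markers Flt4 and Reln summed to 1447 to 1754 in vehicle and 919 to 1526 in SR4 libraries, while 2 of the 4 markers had no row. Their part in the Prox1 value was not tested. Of 12 genes linked to Prox1, 0 passed in limma or limma-voom and 5 had an unadjusted p under 0.05, with a median of 0.06 (-0.06 under scaling to equal totals). Mttp, which loads lipid onto apolipoprotein B, had 10645, 10966 and 9197 against 6637 and 4526 (adjusted p = 0.0733; 0.0445 without SR4 1). Nr0b2, the corepressor SHP, had 645, 826 and 776 against 1188 and 939 (adjusted p = 0.141).

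Of 18 liver genes linked to FOXA and HNF6 that were tested, 1 rose and 0 fell, against 0.436% and 0.882% of all genes. The gene that rose was again Tat, which is also in the Klf15, glucocorticoid and C/EBP lists. The median was -0.24, and 7 of the 18 had an unadjusted p under 0.05, 2 higher and 5 lower, against 21.4% of all genes. Of 20 other liver-enriched factors, among them Hnf4a, Nr5a2 and Srebf1, 0 passed in limma or limma-voom, against 1.32% of all genes in limma. Among these factors 4 had an unadjusted p under 0.05, against 21.4% of all genes. Their median of 0.07 turned to -0.05 when totals were set equal. Stat5a, a growth hormone effector, had 441, 428 and 432 normalised counts in vehicle and 268 and 287 in SR4 libraries (limma adjusted p = 0.061; 0.0436 under scaling to equal totals). Hnf4a, which anchors the same network as the FOXA and ONECUT factors, had a log2 difference of 0.28 (limma adjusted p = 0.356), and was named after its values were seen.

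**Figure D5:**
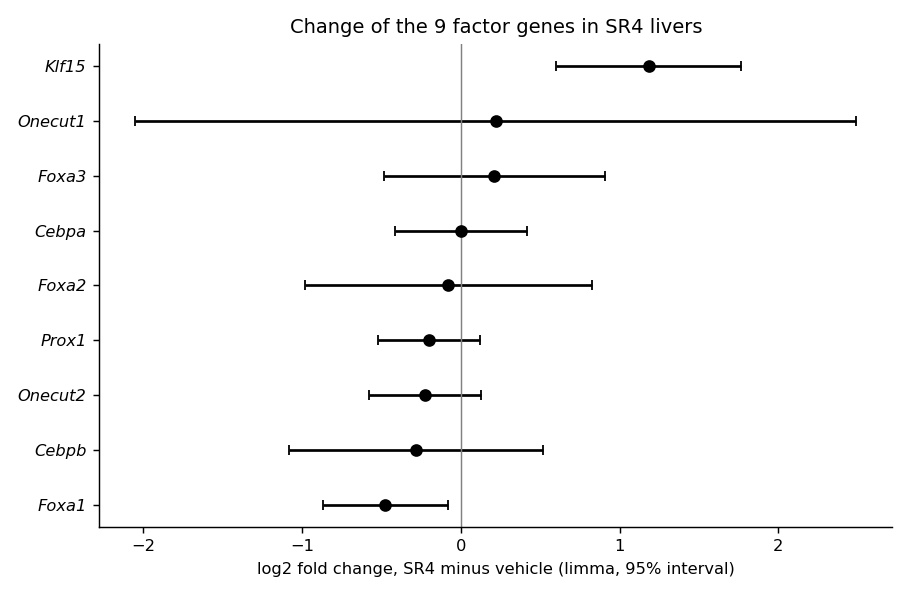
Log2 fold change of each factor gene in SR4 against vehicle livers (point) with its 95% interval from limma (bar). The intervals of Klf15 (0.60 to 1.77) and Foxa1 (-0.87 to -0.08) do not include 0, though neither gene passed after adjustment, and that of Onecut1 is the widest of the 9.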

How the data were processed

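RNA sequencing libraries from livers of vehicle-treated (n = 3) and SR4-treated (n = 2) mice were grouped by their treatment label. Reads had been processed with TopHat2 2.1.1 and Partek on GRCm38 (mm10), per the submitters' processing notes. For the counter, the annotation and the filters: not given in the sources used here. The authors' deposited signal values are read counts per gene, brought to a common total: the 5 columns summed to 25494249 within 0.000735% and only 3.91% of 37656 values from 1 to 1000 were whole within 0.02. They were therefore not treated as counts. In 17 of 11065 rows (0.177% of the total) a date stood in place of the symbol, and these were left out.

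Values were divided by TMM factors, and log2(value + 1) was tested with limma 3.58.1 (R 4.3.3; mean trend, robust shrinkage) over genes at 10 or more in at least 2 libraries, with Benjamini-Hochberg adjustment over all genes and a threshold of 0.05. Fold changes on this scale understate the change of low genes. With 3 against 2 libraries, precision is set by their number. The procedure was tested only on simulated counts with the same dispersion for every gene. Spread differed between genes in these data, so that test does not show how reliable the calls are. Coordinates, exon lengths and overlaps come from GENCODE M21 (GRCm38) and promoters from RefSeq (GRCm38.p6). Related genes were named when they passed (up to 4 a list, smallest p), otherwise the 2 with the smallest p; exceptions are stated. The members and lists were chosen with earlier results of these data known. Alternatives were other scalings, pseudocounts and filters, shrinkage without the robust option, a block for the replicate number, limma-voom (chosen after seeing the data) and each library left out. Python 3.11.15 and matplotlib 3.10.9 drew the figures.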

Additional observations from a re-analysis of the deposited data

How the results depend on the processing

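No member passed in the main analysis or in any of 15 alternatives. The count of all genes called, 139, was 459 with the replicate block, 43 with limma-voom on the deposited values, and 5 to 192 with 1 library left out (8 without vehicle 2, 5 without vehicle 3 and 7 without SR4 2). The count of genes called among the related lists, 6, was 17 with the replicate block and 1 to 12 with 1 library left out (1 without vehicle 2, vehicle 3 or SR4 2 and 12 without SR4 1). The cause was not tested. The libraries share only a number in their titles: deviations from the group means correlated across genes at 0.174 for vehicle 1 with SR4 1 and 0.112 for vehicle 2 with SR4 2, and at 0.104 for vehicle 3 with SR4 2, which share no number. With 2 SR4 libraries their deviations mirror each other by construction, so the numbers were not taken as pairs and the block result is given here alone. Vehicle 3 has no SR4 library of its number, so the block's differences rest on the other libraries. They nearly repeat those without vehicle 3: for Klf15, 1.155 with the block and 1.153 without vehicle 3.

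Scaling to equal totals moved the median of all genes from -0.01 to -0.13 and the share of higher calls from 33.1% to 21.5% (37 higher and 135 lower, against 46 and 93). With 1 library left out in turn, log2 differences changed sign for Bcl6 (-1.60 to 0.76), Cebpa (-0.15 to 0.15), Cebpb (-0.69 to 0.12), Cish (-1.49 to 1.74), Cyp7a1 (-1.35 to 2.54), Foxa2 (-0.58 to 0.42), Foxa3 (-0.25 to 0.67), Onecut1 (-0.92 to 1.36) and Phlda1 (-0.68 to 1.74). None of these 9 genes passed in any of them. Foxa2 was at 0.18 with the replicate block and Cebpa at 0.0011 with upper-quartile factors. edgeR and DESeq2 were not run, since the values were not whole reads.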
